A study of Mus musculus with 2 samples.

Results

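A set of 9 genes known to mark endocrine progenitors or dedifferentiated beta cells were examined in sorted mouse beta cells that carried a Myt family mutation. They were Neurog3, Hes1, Sox9, Ptf1a, Fev, Gast, Cck, Aldh1a3 and Bach2. They were chosen by symbol for their known roles and make up 9 of the 55487 genes listed. All 9 were found in both libraries. Their summed share of the counted reads, in counts scaled to a common library size (CPM), was 80.5 CPM for library 1 against 86.3 CPM for library 2.

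During pancreas development, progenitors that express Sox9, Hes1 and Ptf1a give rise to exocrine and endocrine cells. Notch signalling keeps Hes1, a transcriptional repressor, active and thereby restrains Neurog3, the basic helix-loop-helix factor that starts the endocrine program. Fev follows Neurog3 in endocrine precursors. In adult islets under metabolic stress, beta cells can lose mature features, and Aldh1a3, Neurog3, Gast, Cck and Bach2 are among the genes reported in such cells.

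The study asked which genes depend on Myt transcription factors in beta cells when blood glucose is normal. Both libraries came from mice 2 months old, with pooled sexes, whose genotype label reads MytF/F; Myt2F/F; Myt3F/F; RipCre. These are floxed alleles of the genes the files call Myt1, Myt1l and St18, combined with RipCre, in which the rat insulin promoter drives Cre and so limits deletion to cells where that promoter has been active. Islet cells were dissociated with trypsin and sorted, and the labels do not name the sorting marker. Both libraries were mutant, control cells were not analysed here, and no value below compares mutant with control. Library 2 is labelled a duplicate, with no word on whether other mice were used, so p-values measure only the reads of, or the spread between, these libraries. Fewer cells of a type and less RNA per cell cannot be told apart in such bulk samples.

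Library 1 held 50121771 counted reads and library 2 held 39003197. Of 16 genes of mature beta cells, 16 reached 1 CPM in both libraries. The targeted genes were still counted, at 30.99 and 23.79 TPM (counts scaled by gene length and library size) for St18, 29.7 and 24.8 TPM for Myt1, and 8.74 and 7.58 TPM for Myt1l, and counts over whole genes do not check a deletion. The libraries differed in ways the labels do not give. Xist, made by the inactive X chromosome of female cells, was counted at 5.01 CPM in the first and 653 CPM in the second, and the Y-linked Ddx3y at 102 and 64.2 CPM, so the near absence of Xist in library 1 goes against its label of pooled sexes, and the libraries did not hold the same mix of female and male RNA. Markers of acinar cells, the enzyme-secreting exocrine cells, together reached 166 and 745 CPM, with 17 of 21 detected and Prss1 at 0 reads in both. Each result below is therefore given per library.

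Gast and Cck encode the related peptide hormones gastrin and cholecystokinin, whose receptors recognise the same amidated carboxy terminus. The coding stretches around it are shown because they are what relates these 2 members. They start at base 232 of 303 coding bases in Gast and base 265 of 345 in Cck (GENCODE M21, GRCm38), read 5′ to 3′, and capitals mark the codons of the shared glycine, tryptophan, methionine, aspartate and phenylalanine.
Gast: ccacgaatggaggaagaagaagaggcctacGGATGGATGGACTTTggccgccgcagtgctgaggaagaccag
Cck: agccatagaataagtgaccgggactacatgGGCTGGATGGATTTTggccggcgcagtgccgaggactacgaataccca
Of 21877 protein-coding genes with annotated coding sequence, 2 held these residues in a row, Gast and Cck. From the first capital onwards, 34 of 42 bases were identical. Neither gene shared a run of 50 bases with any other annotated gene, so no read of that length matches both.

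The bases before the start sites of Neurog3 and Cck are shown because these were the members whose reads differed most between the libraries. The sequences are the 250 bases upstream of the RefSeq start on GRCm38.p6, at chr10:62132840-62133089 on the plus strand for Neurog3 and chr9:121495695-121495944 on the minus strand for Cck. Capitals mark E-boxes (CANNTG, the site of basic helix-loop-helix factors) and, in Cck, the cAMP-response-like element TGCGTCA.
Neurog3: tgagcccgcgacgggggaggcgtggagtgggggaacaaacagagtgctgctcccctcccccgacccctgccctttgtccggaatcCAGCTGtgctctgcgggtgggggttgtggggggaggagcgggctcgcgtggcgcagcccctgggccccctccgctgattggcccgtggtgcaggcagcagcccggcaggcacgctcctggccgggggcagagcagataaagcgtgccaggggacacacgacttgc
Cck: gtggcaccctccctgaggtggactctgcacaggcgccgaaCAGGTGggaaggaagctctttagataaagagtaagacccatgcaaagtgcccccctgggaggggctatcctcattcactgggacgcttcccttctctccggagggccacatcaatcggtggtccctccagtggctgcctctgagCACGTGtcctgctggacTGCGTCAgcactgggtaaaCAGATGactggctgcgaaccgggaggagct
On either strand, Neurog3 held 1 E-box and Cck 3, of which 1 was CACGTG. Across the 32851 upstream windows of this length, an E-box occurred in 66.2%, its form CACGTG in 6.02% and the element TGCGTCA in 1.75%. The N-box CACNAG, bound by HES repressors, occurred in 36.7% of windows and in neither of these. A match describes the letters and is not a tested binding site. Promoters of 6 members were in the table used.

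The members ranged from among the better expressed genes to near the counting limit. Detection was set at 1 CPM in both libraries, and 5 of the 9 reached it: Hes1, Neurog3, Aldh1a3, Bach2 and Fev. By the same rule, 24.4% of all listed genes were detected. Gast and Sox9 stayed under 1 CPM in both libraries, Cck passed it in library 2 alone, and Ptf1a had 3 reads in total. By mean TPM the order was Hes1, Neurog3, Cck, Aldh1a3, Gast, Bach2, Fev, Sox9 and Ptf1a. The ranges of the libraries overlapped in 3 of the 8 neighbouring pairs: Neurog3 with Cck, Cck with Aldh1a3, and Bach2 with Fev. Those pairs do not differ beyond the spread over libraries. Within each library Bach2 stood above Fev, whereas the order within the other 2 pairs turned between the libraries. Aldh1a3 and Gast did not overlap, but Gast rested on 37 reads in each library. The median of the 9 genes was 5.02 TPM, and that of all detected genes was 14.8 TPM.

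**Figure D1:**
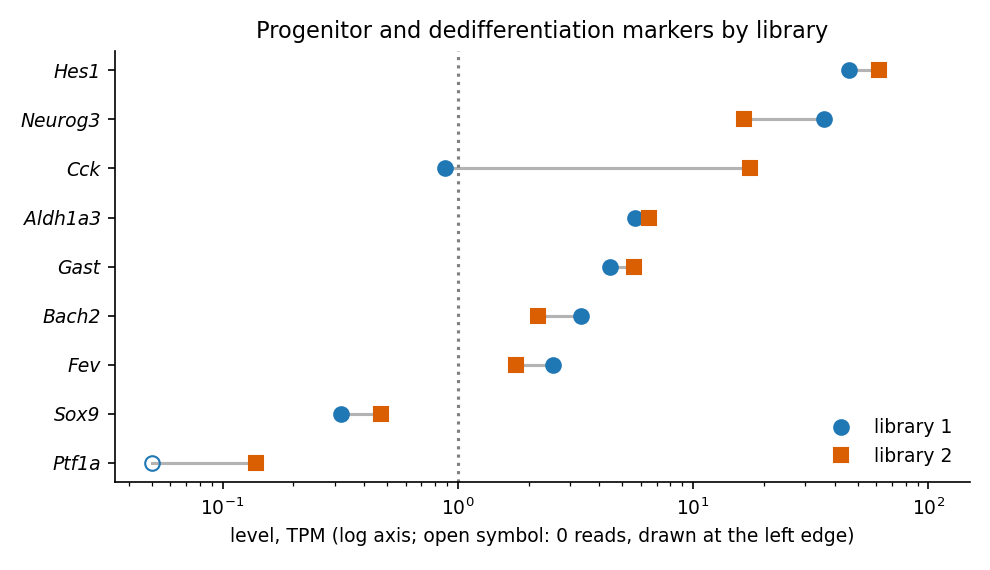
Level of each of the 9 genes in TPM (log axis) in library 1 (circles) and library 2 (squares), with a grey line joining the libraries and a dotted line at 1 TPM. Hes1 was highest in both libraries, Cck moved from 0.884 to 17.4 TPM, and Ptf1a had 0 reads in library 1 (open circle at the left edge).

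Neurog3, the initiator of the endocrine program, was expressed at a moderate level that differed between the libraries. It had 1098 reads and 36.1 TPM in library 1, and 394 reads and 16.4 TPM in library 2, a mean of 26.2 ± 13.9 TPM (SD, n = 2). Of the genes detected in both libraries, 76.2% had a lower TPM in library 1 and 53.8% in library 2. The CPM values were 21.9 (exact 95% binomial interval 20.6 to 23.2) and 10.1 (9.13 to 11.2), so the intervals did not overlap. Neurog3 was 2.17-fold higher in library 1 (95% interval 1.93 to 2.44, counting error only), with an adjusted p of 6.14e-42 in the exact binomial test of the libraries' reads. That call was lost with edgeR's exact test, which uses the spread between these libraries over all genes (adjusted p = 0.208), and 7.18% of all tested genes differed by at least as much. Neurog3 (ENSMUSG00000044312) lies at chr10:62133090-62134763 as 1 merged exon, and 273 of its 1674 exonic bases (16.3%) lie under exons of Fam241b on the opposite strand. The library kit does not mark strand, and Fam241b had 762 and 437 reads. Its part in the Neurog3 count was not tested.

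Genes that act with or after Neurog3 were mostly abundant. Among the other 23 genes of the endocrine cascade, 20 reached the detection limit, and the median of the 23 was 25.6 TPM. Insm1, a zinc-finger factor switched on by Neurog3, had 340 and 295 TPM, and Neurod1, a related factor that persists in beta cells, had 323 and 276 TPM. Insm1 thus exceeded Neurog3 9.42-fold per length in library 1 and 17.96-fold in library 2. Nkx2-2 had 189.8 and 167 TPM, and Rfx6 had 136 and 110 TPM. Pax4, a factor of developing beta cells downstream of Neurog3, was low, with 8 and 7 reads (0.304 and 0.338 TPM). Among the 22 of the 23 others that were tested, 2 were called higher in library 1 and 0 higher in library 2, beside 2.4% and 1.91% of all tested genes. These were Mycl, with 245 and 86 reads, and Sox11, with 66 and 21 reads.

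Basic helix-loop-helix factors bind DNA as dimers with E proteins, which Id proteins block. The E proteins Tcf3, Tcf12 and Tcf4 were present at 34.6 and 30.7, 11.8 and 10.6, and 6.71 and 5.70 TPM. Id2 (14.5 and 14.2 TPM) and Id4 (12.95 and 10.8 TPM) were detected at similar levels, while Id3 had 1.35 and 2.105 TPM and Id1 had 0.569 and 0.241 TPM. None of these 7 was called between the libraries, beside 4.31% of all tested genes.

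Hes1, the Notch-controlled repressor of Neurog3, was the highest member. It had 1701 reads and 45.9 TPM in library 1, and 1796 reads and 61.6 TPM in library 2, a mean of 53.7 ± 11.1 TPM (SD, n = 2). Of detected genes, 81.8% and 87.4% had a lower TPM. Hes1 was 1.36-fold higher in library 2 (95% interval 1.27 to 1.45; exact binomial test, adjusted p = 4.97e-18) and so was below the 2-fold threshold for a call. With edgeR's exact test its adjusted p was 1. Per length, Hes1 exceeded Neurog3 1.27-fold in library 1 and 3.75-fold in library 2. Hes1 (ENSMUSG00000022528) lies at chr16:30064384-30067796 on the plus strand.

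The rest of the Notch pathway was unevenly expressed. Among its 38 other genes, 30 reached the detection limit, and the median of the 38 was 14.4 TPM. Among receptors, Notch1 had 20.2 and 18.9 TPM and Notch2 had 5.16 and 4.55 TPM. Among ligands, Jag2 had 13.8 and 11.6 TPM, Dll4 had 4.95 and 5.84 TPM, Dll1 had 2.03 and 2.73 TPM, and Jag1 had 1.151 and 1.29 TPM. Rbpj, the DNA-binding partner of activated Notch, had 2.35 and 2.38 TPM, and the HES corepressors Tle1 and Tle3 had 16.8 and 18.5, and 33.5 and 34.2 TPM. Other targets of Notch were near the limit, with Hey1 at 6 and 18 reads and Nrarp at 10 and 8 reads, and Hes5 had 1 read in each library. Hes6, an inhibitor of Hes1 and a target of Neurog3, stood at 106 and 82.2 TPM. Of 36 others tested, 2 were called, Hey1 and the ligand-like Dlk1 (7.75 and 21.8 TPM), both higher in library 2. Over all tested genes, 1.91% were called higher in library 2 and 2.4% higher in library 1.

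Sox9, a factor of progenitors and adult duct cells, was near the limit of detection. It had 24 reads in library 1 and 28 in library 2, which is 0.479 CPM (exact 95% interval 0.307 to 0.712) and 0.718 CPM (0.477 to 1.04), or 0.319 and 0.473 TPM. The intervals overlapped, and the exact binomial test gave an adjusted p of 0.311. Among 20 SOX genes 5 were detected, led by Sox4, which works with Neurog3 in endocrine precursors, at 93.1 and 66.4 TPM. Sox6 had 2.75 and 2.38 TPM and Sox5 had 1.18 and 1.02 TPM. Of 13 duct markers 11 were detected, and 0 of 11 tested were called, beside 4.31% of all tested genes. Spp1 stood at 1102 and 1598 TPM, but the duct keratin Krt19 at 3.23 and 6.21 TPM and Car2 at 0 and 2 reads. By contrast the progenitor factors that mature beta cells keep were abundant, with Pdx1 at 316 and 293 TPM and Nkx6-1 at 586 and 628 TPM. Sox9 (ENSMUSG00000000567) lies at chr11:112782224-112787760 on the plus strand.

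Ptf1a, the factor of acinar cells and early multipotent progenitors, was not detectable above the limit of counting. It had 0 reads in library 1, which allows up to 0.0599 CPM, and 3 reads in library 2, which equals the limit of 0.0769 CPM there. Ptf1a (ENSMUSG00000026735) lies at chr2:19445663-19447501, and 40.4% of its exonic bases lie under the antisense gene Ptf1aos, which had 1 and 0 reads. Its acinar partner Rbpjl had 9 and 21 reads and Nr5a2 had 16 and 14 reads. Bhlha15, which acinar cells and other secretory cells use, had 99.5 and 139.5 TPM. Rbpjl was called higher in library 2, whereas Nr5a2 changed little (0.319 and 0.359 CPM). Acinar enzymes moved in the same direction as the few reads of Ptf1a and Rbpjl. Of 19 tested markers, 19 were called higher in library 2, beside 1.91% of all tested genes. Their median log2 ratio was 2.23. The part of acinar RNA in the Ptf1a and Rbpjl reads was not tested.

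Fev, an ETS factor of endocrine precursors and serotonin neurons, was low but detected. It had 75 reads and 2.55 TPM in library 1, and 41 reads and 1.77 TPM in library 2, a mean of 2.16 ± 0.551 TPM (SD, n = 2). The CPM intervals, 1.18 to 1.88 and 0.754 to 1.43, overlapped, and the exact binomial test gave an adjusted p of 0.173. The serotonin machinery around it was partly strong. Tph1 and Tph2, the rate-limiting enzymes of serotonin synthesis, had 565 and 488, and 25.3 and 21.2 TPM, and the decarboxylase Ddc had 277 and 259 TPM. The vesicular transporters Slc18a1 and Slc18a2 had 9.01 and 9.59, and 1.23 and 1.08 TPM. Of the other 16 genes of this list, 8 were detected and 0 of 12 tested were called, beside 4.31% of all tested genes. Fev (ENSMUSG00000055197) lies at chr1:74881509-74885419 on the minus strand.

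Cck, the cholecystokinin gene, differed most between the libraries. It had 21 reads and 0.884 TPM in library 1 but 325 reads and 17.4 TPM in library 2. The CPM values were 0.419 (exact 95% interval 0.259 to 0.640) and 8.33 (7.45 to 9.29), so Cck was 19.9-fold higher in library 2 (12.8 to 32.6; exact binomial test, adjusted p = 3.06e-87). The call held with edgeR's exact test (adjusted p = 3.93e-15), and 0.29% of all tested genes differed by at least as much. Only 2.68% of detected genes had a lower TPM than Cck in library 1, against 55.6% in library 2. Cck (ENSMUSG00000032532) lies at chr9:121489824-121495694 on the minus strand.

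Gast, the gastrin gene, had 37 reads in each library, 0.738 CPM (exact 95% interval 0.52 to 1.02) and 0.949 CPM (0.668 to 1.31). Its exons span only 460 bases, so these few reads amount to 4.42 and 5.62 TPM, a mean of 5.02 ± 0.844 TPM (SD, n = 2). The exact binomial test gave an adjusted p of 0.476. Per length, Gast exceeded Cck 5.00-fold in library 1, and Cck exceeded Gast 3.10-fold in library 2, so the order of the related hormones turned. Gast (ENSMUSG00000017165) lies at chr11:100334407-100336996 on the plus strand.

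The enzymes that process such prohormones were abundant, while the receptors were scarce. The convertases Pcsk1 and Pcsk2 had 787 and 664, and 695 and 588 TPM, and the amidating enzyme Pam had 113.5 and 102.5 TPM. The receptor Cckar had 10 and 33 reads and was called higher in library 2, and Cckbr, which binds gastrin and cholecystokinin, had 10 and 8 reads. Of the 12 other genes of this list, 2 were called, both higher in library 2: Cckar and Qpct, a glutaminyl cyclase, with 39 and 71 reads. Of all tested genes, 1.91% were called in that direction. The tested acinar markers named above were also higher in library 2. So were the regenerating-protein genes Reg2 (61 and 673 reads), Reg3a (0 and 82) and Reg3b (1 and 119), which are expressed in exocrine pancreas and gut. These regenerating-protein genes were named after their values were seen. The Cck ratio, 19.9-fold, was above that of every tested acinar marker, of which Cpb1 had the largest at 7.39-fold. It lay between Reg2 at 14.2-fold and Reg3b at 153-fold. Xist, at 5.01 and 653 CPM, also differed in this direction. Of the gut hormone genes, Gip had 3 and 1 reads, Sct 2 and 0, and Nts 0 in both, whereas Pyy and Gcg, which islet cells make too, had 17202 and 12945, and 23146 and 12887 reads. The part of exocrine RNA in the Cck difference was not tested, nor was that of the mix of female and male RNA.

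Aldh1a3, a retinaldehyde dehydrogenase that makes retinoic acid, was the steadiest member. It had 475 reads and 5.65 TPM in library 1, and 429 reads and 6.49 TPM in library 2, a mean of 6.07 ± 0.588 TPM (SD, n = 2). The ratio of library 2 to library 1 was 1.16 (95% interval 1.02 to 1.33), with an adjusted p of 0.076 in the exact binomial test. That p was 0.0278 with TMM factors and 0.0422 with DESeq2 size factors, still far from 2-fold. Its relatives were lower, with Aldh1a1 at 0.334 and 0.778 TPM and Aldh1a2 at 0.194 and 0.216 TPM. Aldh1a3 exceeded Aldh1a1 16.9-fold and 8.34-fold per length, and Aldh1a2 29.1-fold and 30.1-fold. Of 21 other retinoid genes 11 were detected. The receptors Rara and Rxra had 6.75 and 6.25, and 22.7 and 19.4 TPM. Crabp1 (2 and 1 reads) and the retinoic acid hydroxylase Cyp26b1 (20 and 11 reads) were near the limit. Aldh1a1 was the 1 gene called among the 14 others tested, higher in library 2, beside 1.91% of all tested genes. Aldh1a3 (ENSMUSG00000015134) lies at chr7:66390890-66427517 on the minus strand.

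Bach2, a transcriptional repressor that pairs with small MAF proteins, was low per length despite many reads. It had 602 reads in library 1 and 312 in library 2, spread over 9940 exonic bases, which gave 3.33 and 2.19 TPM, a mean of 2.76 ± 0.804 TPM (SD, n = 2). The CPM values were 12.01 (exact 95% interval 11.1 to 13.0) and 7.999 (7.14 to 8.94), and the intervals did not overlap. Bach2 was 1.501-fold higher in library 1 (1.31 to 1.73; exact binomial test, adjusted p = 3.47e-08), below the 2-fold threshold, and its adjusted p with edgeR's exact test was 1. Its relative Bach1 stood higher, at 32.6 and 32.4 TPM, 9.80-fold and 14.8-fold over Bach2. The partners Mafk, Maff and Mafg had 32.2 and 35.8, 59.7 and 91.5, and 66.6 and 73.1 TPM. Nfe2l2, which competes with BACH proteins at antioxidant genes, had 32.7 and 34.998 TPM, and their target Hmox1 had 17.2 and 14.5 TPM. None of the 11 other genes of this list was called, beside 4.31% of all tested genes. Bach2 (ENSMUSG00000040270) lies at chr4:32238804-32586108, and 5.40% of its exonic bases lie under the antisense Bach2os, which had 8 and 7 reads. Bach2 is also a gene of B lymphocytes. The B-cell marker Cd79a (56 and 13 reads, 1.12 and 0.333 CPM) was called higher in library 1. Ms4a1, another B-cell marker, had 7 and 1 reads, too few in total to be tested. The part of B lymphocytes in the Bach2 difference was not tested.

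**Figure D2:**
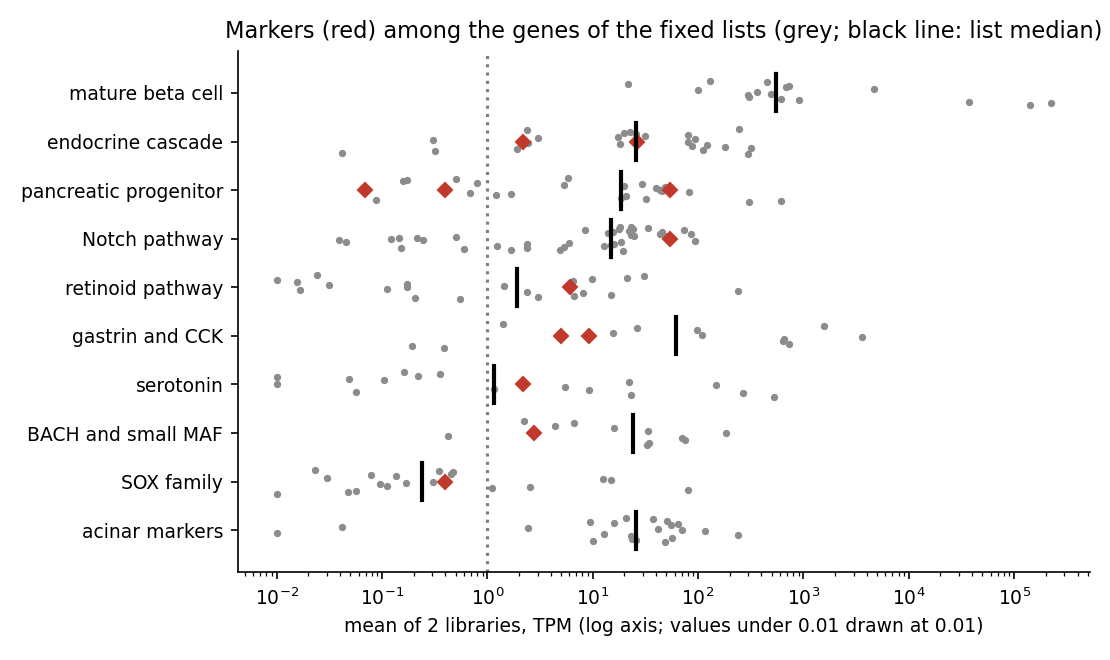
Mean level over both libraries in TPM (log axis) of every gene in 10 fixed lists, with the examined markers as red diamonds, the other genes as grey points, list medians as black lines and a dotted line at 1 TPM. All the markers lay below the median of the mature beta-cell genes, 551 TPM, and Hes1 at 53.7 TPM was the highest of them.

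Mature beta-cell genes set the scale for these levels. Mafa, an activator of insulin transcription, had 815 and 989 TPM and exceeded Neurog3 22.6-fold and 60.2-fold, by library. Ucn3, which encodes a peptide made by mature beta cells, had 443 and 546 TPM. None of the 16 mature genes was called between the libraries, beside 4.31% of all tested genes. The pluripotency genes Pou5f1 (1 and 4 reads), Nanog (5 and 5) and Sox2 (1 and 2), which have been linked to dedifferentiation, were near the limit. Of the 14 other genes on the dedifferentiation list, 8 were detected, led by Cd24a (89.8 and 105 TPM), Klf4 (66.8 and 115 TPM) and Serpina7 (54.8 and 71.4 TPM). Of the 12 tested, Mycl and the mesenchymal filament gene Vim (122 and 28 reads) were called higher in library 1, and 0 higher in library 2. Over all tested genes, 2.4% were called higher in library 1 and 1.91% higher in library 2. Markers of other cell types were also called higher in library 1: Pdgfra and Col1a2 of 10 mesenchymal, Vwf and Pecam1 of 10 endothelial, and Cd79a and Lyz2 of 9 immune markers tested. The median log2 ratios of those lists were -0.39, -0.70 and -0.57, and their summed levels were 17.1 and 11.3, 36.9 and 24.3, and 55.3 and 45.4 CPM. The part of such cells in the Vim difference was not tested.

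Between the libraries, the members did not move one way. Of 8 members with at least 10 reads in total, 2 were called at 2-fold and an adjusted p under 0.05, Cck higher in library 2 and Neurog3 higher in library 1. Over all 20681 tested genes, 4.31% were called, 1.91% higher in library 2 and 2.4% higher in library 1. Hes1, Aldh1a3, Gast and Sox9 were also nominally higher in library 2, at 1.16-fold to 1.499-fold, and Fev and Bach2 in library 1, at 1.42-fold and 1.501-fold. An adjusted p under 0.05 without the fold threshold was reached by 4 members, beside 32.4% of all tested genes, and Aldh1a3 joined them with TMM or DESeq2 scaling. This test compares the reads of these libraries, not conditions.

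**Figure D3:**
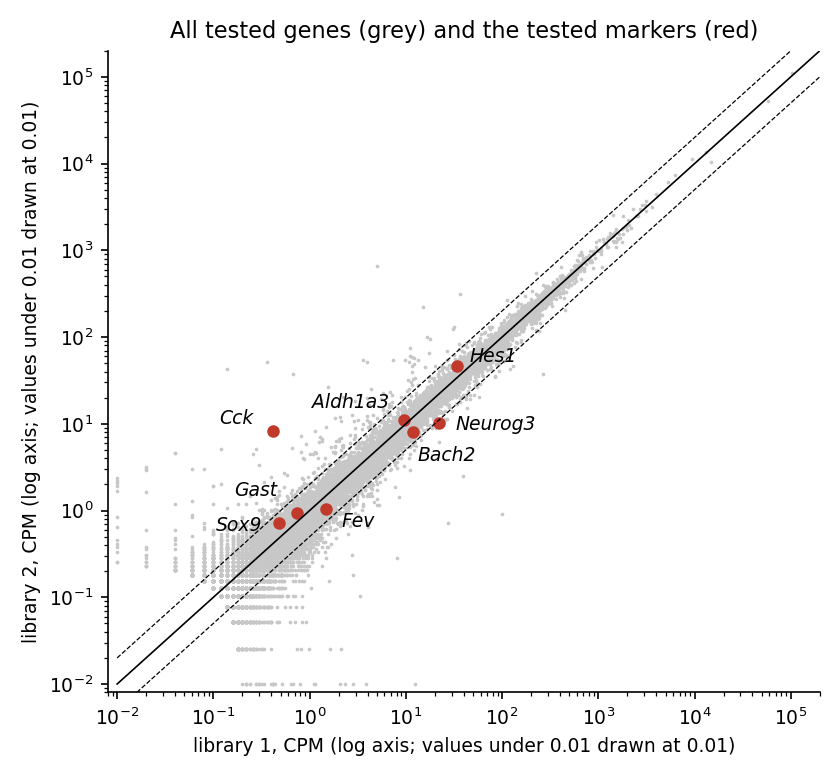
CPM in library 1 (x) against library 2 (y), both on log axes, for all 20681 tested genes (grey) and the 8 tested members (red), with the line of equality and dashed lines at 2-fold. Cck stands far above the upper dashed line, Neurog3 just below the lower one, and the other 6 lie between them.

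**Figure D4:**
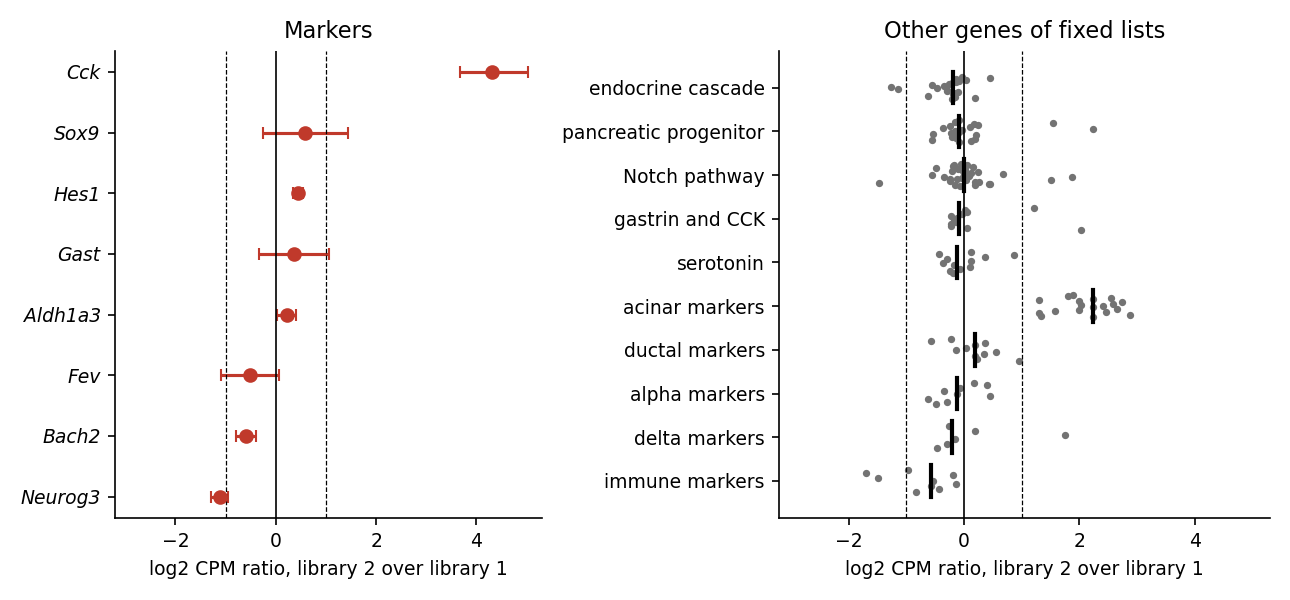
Left, log2 CPM ratio of library 2 over library 1 for the 8 tested members with exact 95% intervals for counting error; right, the same ratio for each other tested gene of 10 fixed lists, with 0.5 read added, list medians as black lines and dashed lines at 2-fold. Cck lies at 4.31 and Neurog3 at -1.12, and the acinar markers all lie to the right of the 2-fold line.

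For the 5 detected members, the listed gene closest in level was sought. Likeness was the distance in log2(TPM + 1) over the 2 libraries, among 319 other listed genes, and so describes levels only. Neurog3 had the most distant nearest gene of the 5, St18, a targeted Myt factor, at a distance of 0.55. Aldh1a3 was nearest to Muc1 (0.087), Bach2 to Runx1t1 (0.126) and Fev to Cd68 (0.033).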

How the data were processed

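RNA of 2 libraries of 1 mutant group was sequenced. Per the submitters' processing notes, the build was GRCm38.p6, and featureCounts 2.0.2, STAR 2.7.8a and cutadapt 2.10 were used. How strand and multiply mapped reads were handled is not given in the sources used here. Per the file headers, the authors deposited raw counts, CPM and TPM per gene. The deposited CPM equals the count over the library total. Members were taken by symbol. The members and lists were chosen with earlier results of these data known. Sex-linked, overlapping, regenerating-protein and gut genes were added after the data were seen.

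Genes with 10 or more reads in total entered a two-sided exact binomial test of the libraries' reads (SciPy 1.17.1), Benjamini-Hochberg adjusted over all 20681 genes tested. Calls needed an adjusted p under 0.05 and a CPM ratio of 2-fold with 0.5 read added. The script was tested on simulated data. Alternatives were edgeR 4.0.16 (TMM factors, and its exact test with the common dispersion of both libraries), DESeq2 1.42.0 size factors, no minimum of reads, 1.5-fold, no read added, other detection limits and each library alone. Totals without the 10 genes with most reads were added after seeing the data. Intervals at 95% are exact Clopper-Pearson and, like the limit of 3 reads, cover counting error only, since reads carry no molecular identifiers and can be copies of 1 molecule. The rule for named genes was all members, fixed partners, and in other lists the highest, the lowest and the called genes, of which only those bearing on a member are printed, and the gene nearest to Hes1 in level is not reported here. Hes5, Hes6, Jag2, Dll4, Ms4a1, Pyy, Gcg and the Reg, gut and sex-linked genes were named after their values were seen. Car2 and Prss1 were also named outside that rule. Coordinates and exons come from GENCODE M21.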

Additional observations from a re-analysis of the deposited data

How the results depend on the processing

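The call of Cck held under all 7 alternatives to the test, and that of Neurog3 under 6. Of the 7, 6 repeated the binomial test on the same reads with other scaling or cutoffs. Those 6 could not bring in the spread between libraries. With edgeR's exact test and the common dispersion of both libraries, 212 genes and 1 member, Cck, were called in place of 892 and 2. At 1.5-fold, 1664 genes and 3 members were called, with Bach2 added at a log2 ratio of -0.59. Scaling by TMM moved every ratio by 0.04 on the log2 scale and changed no member's call. Detection gave 4 members at 5 CPM, 6 at 0.5 CPM or at 1 TPM, 6 in library 2 alone and 5 in library 1 alone. Without length scaling 4 of 9 members kept their place in the order, and 4 to 7 did with either library alone: Cck was at place 7 in library 1, and Cck and Neurog3 exchanged places 2 and 3 in library 2. Aldh1a3 passed an adjusted p of 0.05, without the fold threshold, with TMM and DESeq2 factors. Levels with either library alone are the values given per library. No paired analysis was possible because there is 1 group. The values of Ptf1a, Gast and Sox9 rest on few reads or none in each of the 2 libraries.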
